A study of Mus musculus with 2 samples.

Results

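The 10 genes described here encode the core of the Notch pathway in KPR- and KPRrestored mouse lung cancer cells. They are 3 receptors (*Notch1*, *Notch2* and *Notch3*), 3 ligands (*Jag1*, *Jag2* and *Dll1*), the nuclear partner *Rbpj* and 3 target genes (*Hes1*, *Hey1* and *Heyl*). They were taken by gene symbol from the 23183 genes of the deposited files, and all 10 symbols were found. Of the 10 genes, 7 averaged 1 FPKM or more over both libraries and are here called expressed, 2 averaged less, and *Heyl* was listed at 0 in both.

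Notch signalling passes between touching cells. A Jagged or Delta-like ligand on one cell binds a Notch receptor on the next, the receptor is cut by an ADAM protease and then by γ-secretase, and the freed intracellular domain enters the nucleus. There it joins RBPJ and Mastermind proteins and turns on HES and HEY genes, which encode repressors of transcription. In the lung the pathway is known for its part in the choice between secretory and ciliated airway cells, and *Hes1* for restraining neuroendocrine fate.

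KPR- cells are an immortalized line from lung cancers of KPR L/F-TAM(-) mice. These mice carried *K-Ras* LSL-G12D/+ with both *p53* alleles floxed (*p53* flox/flox), 1 floxed and 1 FSF allele of *Runx3* (*Runx3* flox/FSF), a Tomato reporter and Flp ERT2, and inhaled adenovirus with CMV promoter-driven Cre activated *K-Ras*, deleted *p53* and deleted 1 *Runx3* allele, so both lines share these changes. The other *Runx3* allele is blocked by a Frt-Stop-Frt cassette in KPR- cells (labelled RUNX3 -/-), and 4-hydroxytamoxifen (4-OHT) activates the Flp recombinase that removes it, giving KPRrestored cells (labelled RUNX3 -/+). One library of poly(A) RNA was made per condition, named for 0 h (KPR-) and 16 h (KPRrestored), and the labels give 1 μM 4-OHT for both, whereas the study describes 4-OHT as the step that turns KPR- into KPRrestored cells. How many mice or clones stand behind the line is not given in the sources used here. A difference between the libraries therefore has no replicate check, and no p-value was computed. Restoration cannot be told apart from hours in culture, nor from 4-OHT itself if KPR- cells had none.

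*Runx3*, the targeted gene, had 0.348 FPKM in KPR- and 0.349 FPKM in KPRrestored, from about 28 and 29 fragments, so its level per gene does not check the labels and each direction is that of the library labelled KPRrestored. The study itself reported Runx3 protein after 4-OHT treatment of KPR- cells, by immunoprecipitation and immunoblot. FPKM scales fragment numbers to transcript length and library depth, so levels of different genes can be set side by side. The steps of the low FPKM values gave about 21700000 and 22400000 fragments for the 2 libraries. All 6 epithelial markers were expressed, with summed levels of 4988 and 4827 FPKM, while 4 of the 5 alveolar and lung lineage markers and all 3 club cell markers were listed at 0 in both libraries and *Nkx2-1* had 0.0444 and 0.0216 FPKM. Within the epithelial list *Cldn4* had 107 and 202 FPKM. The 4 mesenchymal markers summed to 2032 and 1707 FPKM, nearly all from *Vim* (1777 and 1464 FPKM) and *Fn1* (242 and 239 FPKM). *Col1a1* had 12.2 and 4.21 FPKM and *Col1a2* had 0.0463 and 0.0180 FPKM. Lung lineage markers were thus at or near 0.

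Differences are given as log2(FPKM + 0.005) in KPRrestored minus KPR-, and 0.5 either way was taken as the size of a call. *Dll1* was the only member higher by this size, and *Hey1* the only member lower. Of all 23183 genes, 13.8% were higher and 12.9% lower by as much, with 6675 of them listed at 0 in both libraries and so unable to pass. Among the 11231 expressed genes these shares were 12.1% and 9.29%, beside 1 of 7 members higher and 0 of 7 lower. The members' count was thus near that of all genes. In bulk RNA such as this, a lower level from fewer cells that express a gene cannot be told apart from less RNA per cell.

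The median difference of the 9 members listed above 0 in both libraries was 0.041, with 5 above 0 and 4 below. The 14874 genes above 0 in both libraries had a median of -0.0092. The 95% counting interval (exact Clopper-Pearson limits from estimated fragments, covering counting error only) left out 0 for 7 of the 9 members, as for 60.3% of all genes with at least 10 estimated fragments. *Notch1* and *Jag2* were the members whose interval held 0.

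**Figure D1:**
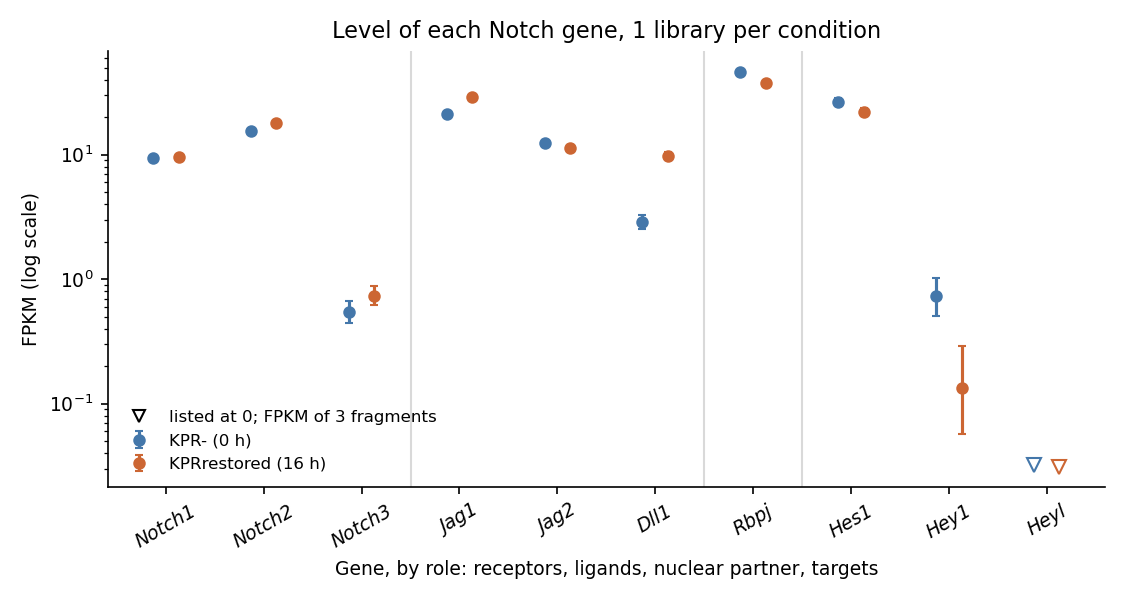
FPKM (log scale) of the 10 Notch genes in the KPR- library (blue, 0 h) and the KPRrestored library (orange, 16 h), with 95% Poisson counting intervals and no replicates. *Dll1* stood at 2.88 and 9.79 FPKM and *Hey1* at 0.733 and 0.134 FPKM, while open triangles put *Heyl*, listed at 0, at the FPKM that 3 fragments would give.

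In KPR- the levels ran from *Rbpj* through *Hes1*, *Jag1*, *Notch2*, *Jag2*, *Notch1*, *Dll1*, *Hey1* and *Notch3* to *Heyl*. In KPRrestored *Jag1* stood above *Hes1*, *Dll1* above *Notch1*, and *Notch3* above *Hey1*. Neighbours whose counting intervals overlapped were *Hey1* and *Notch3* in KPR- and *Dll1* and *Notch1* in KPRrestored. All other neighbours were apart by more than counting error, with fragments estimated on the longest transcript. With the shortest coding transcripts, *Jag2* and *Dll1* would rest on about 136 and 111 fragments in KPRrestored, in place of 1249 and 739. The intervals would then be wider, and the order of levels was not tested with them. *Rbpj* had a higher mean FPKM than 80.8% of the expressed genes, *Jag1* than 67.7% and *Hes1* than 66.8%. *Notch2* stood above 56.1%, *Jag2* above 45.2%, *Notch1* above 38.5% and *Dll1* above 27.3% of them.

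*Notch2* was the most abundant receptor in both libraries. It is at chr3:98013527-98150361 (plus strand, GRCm38 as all positions here). The level was 15.5 FPKM in KPR- and 17.9 FPKM in KPRrestored, from about 3467 and 4128 fragments. The difference of 0.21 (interval 0.14 to 0.27) was under the size of a call.

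*Notch1*, the receptor best known from T cell leukaemia, is at chr2:26457903-26516663 (minus strand). It had 9.32 FPKM in KPR- and 9.59 FPKM in KPRrestored, a difference of 0.041 with an interval of -0.051 to 0.13. A difference in *Notch1* was thus not detectable beyond counting error.

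*Notch3*, known best from the mural cells of vessels, is at chr17:32120820-32166852 (minus strand). It had 0.550 and 0.740 FPKM, from about 93 and 129 fragments over a transcript of 8016 bases, and a difference of 0.42 (interval 0.030 to 0.83). The mural markers were near 0, with 0 of 5 reaching a mean FPKM of 1 and summed levels of 0.323 and 0.115 FPKM. With the shortest coding transcript, of 717 bases, *Notch3* would rest on about 6 and 8 fragments and its interval would hold 0.

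Receptor transcripts are long, and differences in these libraries moved with transcript length. Genes of the length bin of *Notch1*, *Notch2* and *Notch3*, the longest of 20 bins, had a median difference of -0.22, while that of the bin of *Hes1* was 0.10. With the median of its length bin subtracted, an alternative added after the values were seen, *Notch3* stood at 0.65, *Notch2* at 0.43 and *Notch1* at 0.26. *Notch3* then passed the size of a call, and the part of transcript length in these values was not tested.

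**Figure D2:**
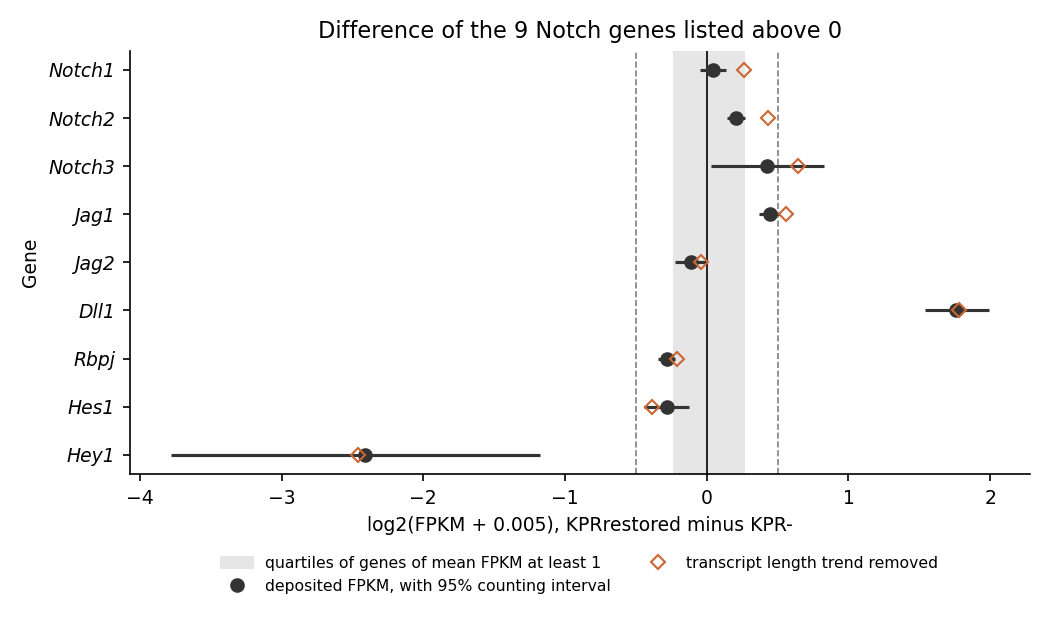
Difference in log2(FPKM + 0.005), KPRrestored minus KPR-, of the 9 members listed above 0, with 95% counting intervals (black) and after subtraction of the length-bin median (open diamonds). The grey band spans the quartiles of the expressed genes (-0.23 to 0.27) and dashed lines mark 0.5 either way. *Dll1* at 1.76 and *Hey1* at -2.41 lie outside the dashed lines.

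Among the ligands, *Dll1* differed most. It is at chr17:15367354-15376872 (minus strand) and encodes a Delta-like ligand. It had 2.88 FPKM in KPR- and 9.79 FPKM in KPRrestored, from about 211 and 739 fragments. The level was 3.40-fold higher in KPRrestored, or 1.76 on the log2 scale (interval 1.54 to 1.99). Only 83 of the 11231 expressed genes (0.739%), *Dll1* included, had a difference as high.

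*Jag1*, the most abundant ligand, is at chr2:137081456-137116644 (minus strand). It had 21.2 FPKM in KPR- and 28.9 FPKM in KPRrestored, a 1.36-fold higher level. Its difference of 0.44 (interval 0.37 to 0.52) was below the size of a call, and was 0.56 with the length-bin median subtracted.

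*Jag2*, the other Jagged ligand, is at chr12:112907819-112929776 (minus strand). It had 12.3 FPKM in KPR- and 11.4 FPKM in KPRrestored, and its difference of -0.11 had an interval of -0.23 to 0.00056. Of the 3 ligands, *Dll1* and *Jag1* were thus higher beyond counting error, and no direction was shown for *Jag2*.

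**Figure D3:**
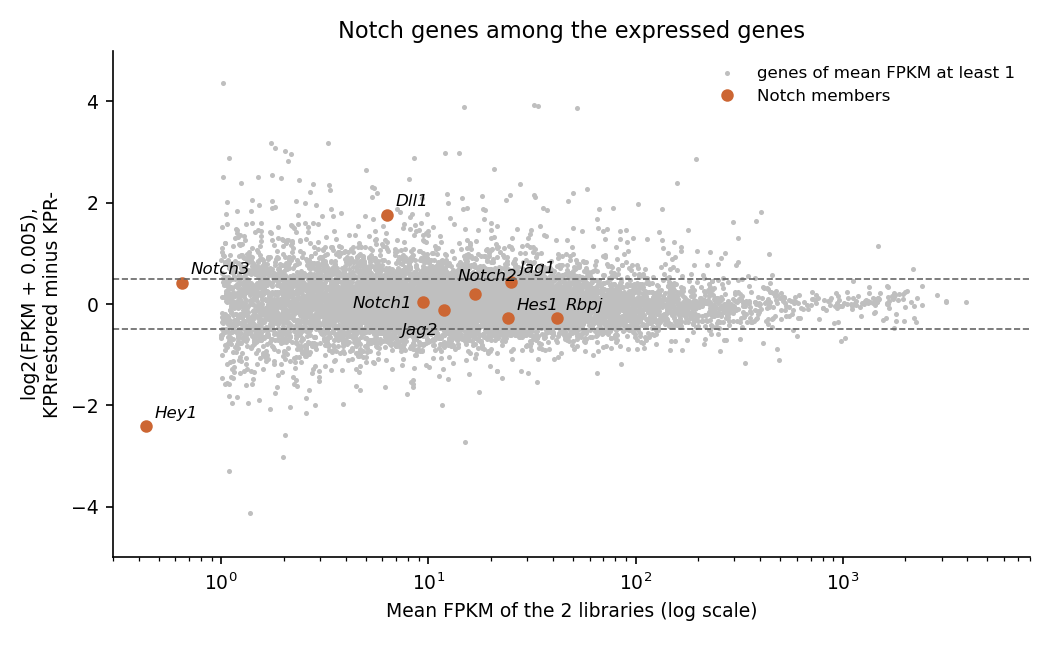
Difference in log2(FPKM + 0.005), KPRrestored minus KPR-, against the mean FPKM (log scale) of each expressed gene (grey), with the 9 members listed above 0 in orange. Dashed lines mark 0.5 either way, and 19 genes lie beyond the vertical axis. *Dll1* lies near the upper edge of the genes of like level, and *Hey1* and *Notch3* lie below the mean FPKM of 1 at which the grey points begin.

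The summed FPKM of the 5 canonical ligands, which are these 3 with *Dll3* and *Dll4*, was 37.5 in KPR- and 51.7 in KPRrestored. *Dll1* made up 7.69% of it in KPR- and 18.9% in KPRrestored, while *Jag2* made up 32.9% and 22.01%. *Jag1* held 56.7% and 55.8%, so it remained the main ligand transcript in both libraries. The summed FPKM of the 4 receptors was 25.5 and 28.5, of which *Notch2* gave 60.8% and 62.8% and *Notch1* 36.5% and 33.6%.

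**Figure D4:**
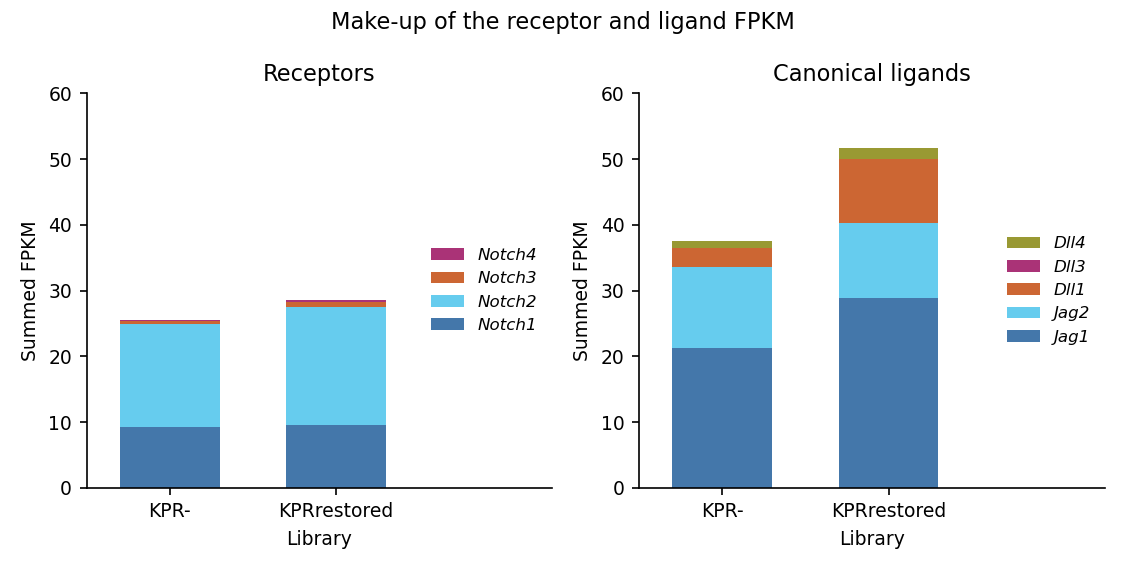
Summed FPKM of the 4 Notch receptors (left) and the 5 canonical ligands (right) in each library, stacked by gene, with 1 library per bar and no error bars. The ligand bar is 37.5 in KPR- and 51.7 in KPRrestored, with the *Dll1* segment going from 2.88 to 9.79 FPKM, while the receptor bars are 25.5 and 28.5.

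*Rbpj*, which encodes the DNA-binding partner of the Notch intracellular domain and represses the same genes when Notch is off, was the most abundant member in both libraries. It is at chr5:53466152-53657362 (plus strand). The level was 46.1 FPKM in KPR- and 37.9 FPKM in KPRrestored, from about 5276 and 4476 fragments. The difference of -0.28 (interval -0.34 to -0.23) was under the size of a call. GENCODE M21 also annotates the processed pseudogenes Rbpj-ps1 and Rbpj-ps3, which are not among the listed genes, and whether reads were shared with them was not tested.

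*Hes1*, a repressor and the best known Notch target, is at chr16:30064384-30067796 (plus strand). It had 26.7 FPKM in KPR- and 21.96 FPKM in KPRrestored, from about 730 and 619 fragments. Its difference of -0.28 (interval -0.44 to -0.13) was also under the size of a call, and was -0.38 with the length-bin median subtracted.

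*Hey1*, a HES-related repressor, is at chr3:8663359-8667256 (minus strand). It had 0.733 FPKM in KPR- and 0.134 FPKM in KPRrestored, a 5.48-fold lower level from about 35 and 7 fragments. The difference of -2.41 had an interval of -3.78 to -1.18, and on the log2(FPKM + 1) scale it was -0.61. *Hey1* was thus the member with the largest difference and the fewest fragments among those above 0.

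*Heyl*, the third HES/HEY member, is at chr4:123233556-123249875 (plus strand) and was listed at 0 in both libraries. With its transcript of 4537 bases, 3 fragments would have given 0.0320 FPKM in KPR- and 0.0310 FPKM in KPRrestored, so a level up to about these values was not detectable at this depth.

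RefSeq promoter windows on GRCm38.p6, which run from 250 bases before to 50 bases after a start site, were given for 7 of the 10 members as 9 windows. *Hes1*, *Hey1* and *Heyl* had none. The windows were searched on both strands for TGGGAA (the RBPJ core), TGTGGT or TGCGGT (RUNX), CACGTG (E box) and CACNAG (N box, bound by HES proteins). None of the matches of different motifs overlapped. TGGGAA was found in 2 of the 9 windows, both of *Rbpj*, which overlap and share 1 of the matches, beside 25.6% of all 32851 windows. The RUNX letters were in 0 of the 9, beside 22.4%, CACGTG in 0, beside 7.15%, and CACNAG in 4, beside 42.5%. Shown here are the upstream window of *Rbpj*, the most abundant member and the gene whose product binds TGGGAA, and both windows of *Dll1*, the ligand that differed most. Each is written 5′ to 3′ on the strand of the gene, with the motif letters in capitals.

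Rbpj, chr5:53590096-53590395, plus strand: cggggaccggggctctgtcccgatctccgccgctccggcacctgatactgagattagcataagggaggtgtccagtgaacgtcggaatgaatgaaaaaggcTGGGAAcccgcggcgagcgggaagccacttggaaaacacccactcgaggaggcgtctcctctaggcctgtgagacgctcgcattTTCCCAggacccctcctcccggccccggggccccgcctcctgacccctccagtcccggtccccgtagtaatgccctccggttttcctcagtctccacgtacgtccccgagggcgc
Dll1 upstream window, chr17:15376883-15377182, minus strand: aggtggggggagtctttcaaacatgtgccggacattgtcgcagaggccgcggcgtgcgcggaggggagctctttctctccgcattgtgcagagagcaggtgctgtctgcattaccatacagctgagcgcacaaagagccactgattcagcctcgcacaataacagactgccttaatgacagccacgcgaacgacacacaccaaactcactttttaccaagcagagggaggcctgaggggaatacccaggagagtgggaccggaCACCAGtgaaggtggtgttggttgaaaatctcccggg
Dll1 downstream window, chr17:15375774-15376073, minus strand: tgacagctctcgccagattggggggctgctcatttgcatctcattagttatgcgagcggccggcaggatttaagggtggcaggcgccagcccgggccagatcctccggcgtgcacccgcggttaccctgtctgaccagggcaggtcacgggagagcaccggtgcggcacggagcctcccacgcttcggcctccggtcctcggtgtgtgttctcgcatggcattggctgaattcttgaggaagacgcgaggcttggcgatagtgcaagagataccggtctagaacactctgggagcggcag

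In the *Rbpj* window TGGGAA stands once in each direction, beginning at positions -149 and -65 from the start site, and the latter match also lies in the other *Rbpj* window. The upstream *Dll1* window holds 1 CACNAG match, which begins 13 bases after the RefSeq start site of that window, and the downstream window holds none of the 4 motifs. The upstream window lies wholly outside the GENCODE M21 position of *Dll1* given above, which ends at 15376872. A match is a run of letters and not a bound site, and a window without one says nothing about binding elsewhere.

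The rest of the pathway was described by 62 other genes in 8 roles, all found in the files, of which 51 were expressed. Of these 51 genes, 5 were higher (9.80%) and 6 lower (11.8%) by 0.5 or more, beside 12.1% and 9.29% of all genes at this level. The counts were thus near the background in both directions. Their median difference was -0.11, with 31 below 0 and 20 above, beside a median of 0.0086 for all 11231 genes. Among the 11 genes under this level, 8 were higher and 0 lower by the same size, from at most 43 estimated fragments in a library, beside 15.4% higher and 16.4% lower among all 11952 genes under it. Those 11952 genes include 6675 listed at 0 in both libraries, which could not pass and so lower both shares. Of the 11 genes only *Hes2* and *Hes3* were so listed, and the shares are not a like background for them. Of the 8, *Dll3*, *Dner*, *Dtx1* and *Hes5* were listed at 0 in KPR- and had at most 4 estimated fragments in KPRrestored, so their call rests on the pseudocount. With the length-bin median subtracted, 4 of the 62 genes were lower in place of 6. The part of transcript length in the pathway values was not tested.

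Endocytosis of ligand and receptor at the membrane drives and tunes the pathway. Of 12 expressed genes for endocytosis and ubiquitin ligases, 3 were higher and 1 lower, beside 12.1% and 9.29% of all expressed genes. *Mib2*, which encodes a Mind bomb ubiquitin ligase that drives ligand endocytosis, had 3.25 FPKM in KPR- and 11.4 FPKM in KPRrestored, 3.51-fold higher, with a difference of 1.81 (interval 1.60 to 2.02). Only 78 of the 11231 genes (0.695%), *Mib2* included, had a difference as high. *Numbl*, which encodes a relative of the Notch inhibitor Numb, had 8.00 and 15.9 FPKM, a difference of 0.99 (interval 0.83 to 1.16). *Dtx3*, a Deltex family ubiquitin ligase gene, had 9.82 and 15.1 FPKM (difference 0.62). These 3 were higher in KPRrestored, whereas *Neurl1b*, of the Neuralized family of ligand ubiquitin ligases, was lower, with 9.81 and 6.505 FPKM (difference -0.59). *Nedd4*, the most abundant gene of this role, had 248 and 183 FPKM and a difference of -0.44. *Mib1*, the paralogue of *Mib2*, went the other way, with 10.7 and 8.35 FPKM and a difference of -0.35 (interval -0.52 to -0.19).

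Expressed genes that add sugars to the receptors were lower or within the size of a call. *Lfng*, a Fringe glycosyltransferase gene that sets which ligands a receptor answers to, had 11.8 FPKM in KPR- and 6.81 FPKM in KPRrestored, a difference of -0.79 (interval -0.99 to -0.59). *Pofut1*, which encodes the enzyme that adds O-fucose to Notch, had 17.0 and 10.5 FPKM, a difference of -0.70 (interval -0.81 to -0.60). *Poglut1*, the O-glucosyltransferase gene, had 16.3 and 12.5 FPKM, a difference of -0.38, and was the most abundant of the role by its mean over both libraries and in KPRrestored, while *Pofut1* was in KPR-. All 4 expressed genes of this role had a difference below 0, and 2 were lower by the size of a call, beside 9.29% of all expressed genes.

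The other ligands went both ways. *Dlk2*, a Delta-like gene whose product lacks the DSL domain of the canonical ligands, had 12.7 FPKM in KPR- and 4.26 FPKM in KPRrestored, 2.97-fold lower, with a difference of -1.57 (interval -1.87 to -1.27). Only 46 of the 11231 genes (0.410%), *Dlk2* included, were lower by as much. Its paralogue *Dlk1* had 1.5 and 0.831 FPKM, a difference of -0.85. *Dll4*, a Delta-like ligand gene of sprouting vessels, had 1.04 and 1.67 FPKM, a difference of 0.68 (interval 0.27 to 1.10). *Dll3* was listed at 0 in KPR- and had 0.0227 FPKM in KPRrestored, from about 1 fragment.

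*Notch4*, the receptor of endothelial cells, had 0.129 and 0.298 FPKM from about 18 and 43 fragments. Of 5 endothelial markers only *Kdr* reached a mean FPKM of 1, with 1.10 and 2.05 FPKM. *Tek* was listed at 0 in both libraries, *Cdh5* had 0 and 0.141 FPKM, *Pecam1* had 0.0601 and 0.0292 FPKM, and the list summed to 1.19 and 2.24 FPKM. *Kdr* and *Cdh5* (about 0 and 12 fragments) thus moved the same way as *Dll4* and *Notch4*. *Pecam1* (about 4 and 2 fragments) and *Vwf* (about 6 and 4) went the other way. The endothelial markers other than *Kdr* were at or near 0, and the part of these markers in the values of *Dll4* and *Notch4* was not tested. Of 5 leukocyte markers only *Cd68* reached a mean FPKM of 1, with 3.08 and 6.78 FPKM from about 68 and 155 fragments (difference 1.13), and its part in the values of the Notch genes was not tested. *Ptprc*, the defining leukocyte marker, had 0 and 0.00892 FPKM, and the other 3 were listed at 0.

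The machinery of receptor cleavage stood within the size of a call, which 12.1% of all expressed genes passed upward and 9.29% downward. All 9 expressed genes of this role, among them those of ADAM proteases and γ-secretase subunits, differed by less than 0.5, with 7 below 0 and a median of -0.12. *Psenen*, a γ-secretase subunit gene and the most abundant of them, had 115 FPKM in KPR- and 132 FPKM in KPRrestored (difference 0.20). *Adam10* had 47.7 and 36.7 FPKM, a difference of -0.38.

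Few genes of nuclear partners passed the size of a call, as among all expressed genes (12.1% higher and 9.29% lower). Of 8 coactivator genes only *Maml3*, a Mastermind gene, passed the size of a call, with 1.83 and 1.22 FPKM (difference -0.58), while *Snw1*, the most abundant, had a difference of 0.14. Of 13 corepressor genes only *Cir1*, which encodes a corepressor that binds RBPJ, did so, with 16.1 and 26.0 FPKM (difference 0.69, interval 0.58 to 0.82). *Aes*, a Groucho-related gene and the most abundant corepressor, had 208 and 221 FPKM.

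Of the 7 genes listed as other targets, *Hes6* and *Nrarp* were expressed, and whether each answers to Notch in these cells was not tested. *Nrarp*, a target that feeds back on the Notch intracellular domain, had 16.9 FPKM in KPR- and 17.6 FPKM in KPRrestored, a difference of 0.059 (interval -0.077 to 0.19). *Hes6*, whose product antagonises HES1, had 19.3 and 20.05 FPKM and a difference of 0.055 (interval -0.13 to 0.24). Both intervals held 0, and neither gene passed the size of a call.

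Some of the named genes overlap others in GENCODE M21, and whether counting used strand is not given in the sources used here. *Dlk2* overlaps *Abcc10* on the opposite strand, which had 2.06 and 2.05 FPKM. *Cir1* overlaps *Scrn3* (4.86 and 4.40 FPKM) and *Sp9*, *Psenen* overlaps *U2af1l4*, *Snw1* overlaps *Slirp*, and *Dll4* overlaps *Gm14207* (0.355 and 0.116 FPKM), all on opposite strands. Of the members, *Notch1*, *Notch2*, *Notch3* and *Dll1* overlap annotated transcripts that are not among the listed genes, as do *Numbl* and *Psenen*. For *Notch2* and *Numbl* such an overlap is on the same strand. Sharing of reads with these unlisted transcripts was not tested.

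**Figure D5:**
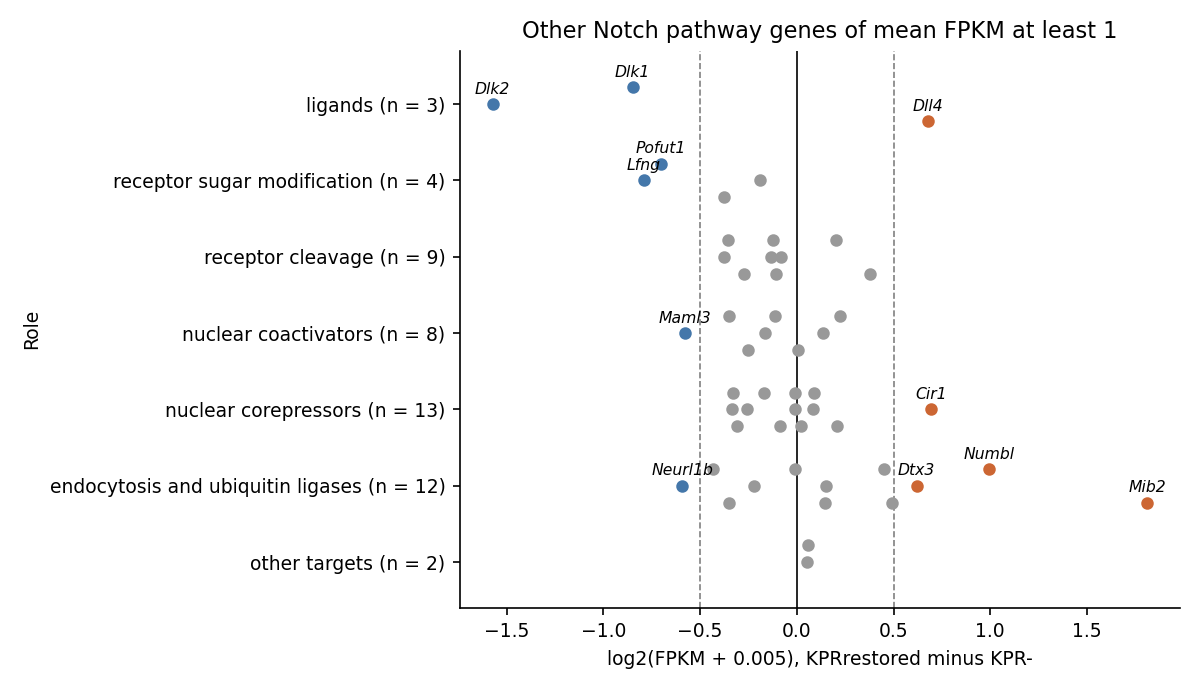
Difference in log2(FPKM + 0.005), KPRrestored minus KPR-, of the 51 other Notch expressed pathway genes, by role, 1 point per gene with no replicates. Dashed lines mark 0.5 either way, and named genes lie outside them, 5 higher (orange) and 6 lower (blue), with *Mib2* at 1.81 and *Dlk2* at -1.57 the farthest out.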

How the data were processed

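Poly(A) RNA of 1 library per condition was sequenced as paired ends from directional libraries. The authors removed adapters and low-quality reads, mapped reads using TopHat and estimated FPKM using Cufflinks. The methods also describe a geometric normalization of read counts, and whether it touched these values is not stated. The deposited files hold 1 FPKM value per gene and library on mm10, per the labels. Versions and the annotation are not given in the sources used here. The FPKM totals were 521340 (KPR-) and 523647 (KPRrestored).

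Differences were computed as log2(FPKM + 0.005), which understates the change of genes near the pseudocount. Fragments were estimated from the steps of low FPKM values, with the longest GENCODE M21 transcript of each gene (with a RefSeq counterpart where one exists) and a fitted fragment length of 210 bases. Of the values of single-length genes with 0.5 to 5.5 fragments, 78.5% and 80.1% lay within 0.1 of a whole number. Of 23183 symbols, 22148 matched the annotation. The depth fit and the intervals were tested on simulated data that held counting error alone, with the transcript length of each gene known. Such data cannot test the choice of transcript or variation between cultures. Estimated fragments are upper estimates for genes with shorter transcripts.

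Named were the 10 members, *Runx3*, *Notch4*, *Dll3*, *Dll4*, the expressed pathway genes past 0.5 and the most abundant gene of each role. *Adam10*, *Mib1*, *Nrarp*, *Dner*, *Dtx1* and *Hes5*, outside this rule, the overlapping genes, and the markers, were picked from the lists after their values were seen. The members and lists were chosen with earlier results of these data known. Alternatives were pseudocounts of 0.1 and 1, scaling to equal totals (TPM) or upper quartiles, centring, a mean FPKM of at least 1, a size of 1, the shortest coding transcript and, added later, removal of the length trend. The scripts ran on Python 3.11.15 with scipy 1.17.1 for the intervals, pandas 2.3.3 and numpy 2.4.6 for the tables, and figures were drawn with matplotlib 3.10.9.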

Additional observations from a re-analysis of the deposited data

How the results depend on the processing

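No member past the size of a call changed direction under any alternative run. *Dll1* ranged from 1.47 to 1.78 and *Hey1* from -2.46 to -0.61, both ends nearest 0 at a pseudocount of 1. Of 54 values of single members under the alternatives that recompute the difference, 48 lay inside the counting interval. Scaling moved the median of the expressed genes by less than 0.1, and centring set it from 0.0086 to 0 by construction.

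With the length trend removed, 3 members were higher by 0.5 or more (*Dll1*, *Notch3* and *Jag1*) and 1 was lower. Of the 21963 genes with estimated fragments, 13.4% were then higher and 12.7% lower by this size. The members' median was 0.26 at this setting. With genes of a mean FPKM of at least 1 only, 0 members were lower, beside 9.29% of all such genes. Of the 62 other pathway genes, 13 were higher and 6 lower, beside 13.8% and 12.9% of all genes. The shares of all 23183 genes count 6675 genes listed at 0 in both libraries, which could not pass. Of the 62 only *Hes2* and *Hes3* were so listed, so these shares are low as a background for the 62. With the length trend removed, 13 of the 62 were higher and 4 lower, beside 13.4% and 12.7%. At a pseudocount of 1, 5 of the 62 were higher and 4 lower (all genes 4.92% and 3.61%). Of the 51 expressed pathway genes, 5 were higher (9.80%) and 6 lower (11.8%), beside 12.1% and 9.29% of all expressed genes. Fewer were higher at these 2 settings since they shrink or remove low genes. At a size of 1, 8 of the 62 were higher and 1 lower (all genes 7.01% and 6.59%). With the shortest coding transcript the interval left out 0 for 6 members in place of 7. No replicate could be left out, and no paired analysis was possible because each condition has 1 library. Depth limits *Heyl*, *Hey1*, *Notch3* and the 11 pathway genes of low FPKM.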
